A study of Mus musculus with 6 samples.

Results

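The JAK kinases and 5 of the STAT transcription factors were examined across 6 mouse RNA sequencing libraries. The 9 genes were taken by symbol from the deposited table of 29872 gene symbols: the whole JAK family (Jak1, Jak2, Jak3 and Tyk2) and Stat3, Stat4, Stat5a, Stat5b and Stat6. All 9 were present and all 9 passed the filter on low counts. There are 3 libraries from mice or cells called CML, for chronic myeloid leukaemia, and 3 called WT, for wild type. In both groups the cells were bone marrow cells of C57BL/6 mice, untreated, expanded in culture and sorted as Lin-Sca1+cKit+CD150+, a gate for stem and progenitor cells. The labels name no transgene, promoter or culture medium for either group and give no animal age. Nor do they say whether a group's libraries are separate mice or cultures. The p-values therefore set the group difference only against the variation between these libraries, and that variation may be technical.

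Cytokine receptors of the haematopoietic family have no kinase of their own and carry a JAK kinase on their inner part. When the cytokine binds, the JAKs phosphorylate the receptor and then the STAT factors, which pair up, enter the nucleus and switch on genes, among them the SOCS inhibitors that damp the pathway. In chronic myeloid leukaemia the BCR-ABL kinase can activate STAT5 as well. RNA levels do not show whether a kinase or a STAT protein is active.

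Stat5a and Stat5b are near-copies that lie next to each other on chromosome 11, and their sequence bears on how well their counts can be told apart. Over 2291 aligned coding bases (GENCODE M21 transcripts, GRCm38), 90.8% were identical, against 58.4% to 65.0% for the 6 other pairs of members that were aligned. The longest identical run held 324 bases, coding positions 571 to 894 in both, counted from the first base of the start codon. It spans parts or all of exons 6, 7 and 8. Exon 7 lies at chr11:100874339-100874490 on the plus strand in Stat5a and at chr11:100798234-100798385 on the minus strand in Stat5b. The run begins after the difference C570A and ends before the difference C895T, with the Stat5a base given first. Both ends are shown because they mark where a read can first be assigned, with the shared run in capitals and the 12 bases outside it in lower case.
Stat5a start of run: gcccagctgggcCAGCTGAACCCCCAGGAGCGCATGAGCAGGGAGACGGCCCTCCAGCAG
Stat5b start of run: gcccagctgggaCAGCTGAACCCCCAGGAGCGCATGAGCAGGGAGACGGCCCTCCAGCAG
Stat5a end of run: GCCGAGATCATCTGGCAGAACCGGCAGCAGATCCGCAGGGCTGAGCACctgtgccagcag
Stat5b end of run: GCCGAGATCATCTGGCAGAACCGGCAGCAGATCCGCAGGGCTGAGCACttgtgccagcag
The whole of exon 7 was identical, 152 bases.
Exon 7 of both genes: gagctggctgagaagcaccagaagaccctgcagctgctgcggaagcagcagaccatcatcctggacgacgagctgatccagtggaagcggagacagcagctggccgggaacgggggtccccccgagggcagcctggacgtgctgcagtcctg

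Of all stretches of 50 bases in the annotated transcripts of Stat5b, 10.98% also occurred in Stat5a, and 8.21% of those of Stat5a occurred in Stat5b. No other pair among the 9 genes and Stat2 shared such a stretch. The deposited counts of these 2 genes carry fractions in all 6 libraries, and each time they add up to a whole number within 0.03. The sums were 2342, 2467.01 and 2839 counts in CML replicates 1, 2 and 3 and 2109.99, 2173 and 2176.99 in the WT replicates. No other gene of the table had fractions in every library that completed those of Stat5a or Stat5b. Jak3 and Insl3, which overlap, likewise added up to a whole number within 0.03 in 6 of 6 libraries. How the reads common to both were divided is not given in the sources used here, so the values of Stat5a and Stat5b are uncertain and their sum is given beside them.

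All 9 genes had a higher mean in CML than in WT, by between 1.09-fold and 1.60-fold. Jak2, Tyk2, Stat4 and Stat5b passed the threshold as higher, and none passed as lower (edgeR quasi-likelihood test, Benjamini-Hochberg adjusted p under 0.05 over 16221 tested genes). Over all tested genes, 10.2% were called higher and 7.20% lower. The median log2 fold change of the 9 members was 0.40 and that of all tested genes -0.004, and 49.6% of all tested genes had a value above 0. For 7 of the 9 members the groups did not overlap and CML was the higher; groups did not overlap for 35.0% of all tested genes, and for 18.5% with CML the higher. In bulk RNA, more cells of a type that expresses a gene and more RNA of that gene per cell cannot be told apart.

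**Figure D1:**
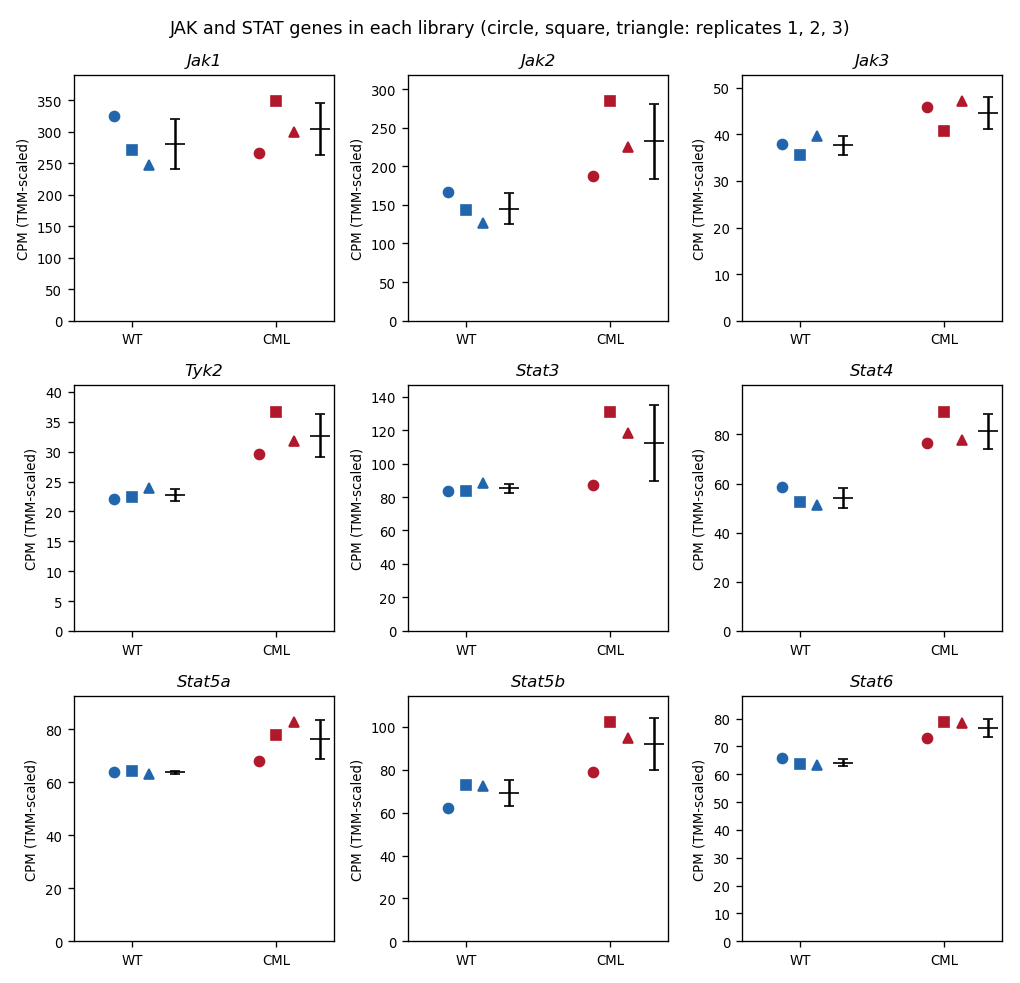
Expression of the 9 genes as CPM (counts scaled to a common library size with TMM factors; linear axes from 0) in each WT (blue) and CML (red) library; symbols are replicates 1 to 3, and black bars give the mean and SD (n = 3). Jak1 and Stat3 are the genes whose groups overlap, and Stat4 and Tyk2 show a clear gap between them.

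Among the kinases, Jak2 had the largest difference. Jak2 serves the receptors for erythropoietin and the interleukin-3 family, and lies at chr19:29251828-29313080. Its level in CML replicates 1, 2 and 3 was 188, 285 and 225 CPM, and in WT 166, 143 and 126 CPM. CML replicate 2 was the highest, and the lowest CML library lay just above the highest WT library. The means were 233 ± 48.7 CPM for CML against 145 ± 20.1 CPM for WT (SD, n = 3). Jak2 was 1.60-fold higher in CML, with a 95% interval from 1.26 to 2.03 (log2 fold change 0.68, SE 0.16, edgeR adjusted p = 0.0107). Without WT replicate 2 the value was 0.66 and missed the threshold (adjusted p = 0.0534).

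Tyk2, which serves the receptors for type I interferon and interleukin-12, was the scarcest of the 9 (chr9:21104068-21131243). Its values were 29.6, 36.7 and 31.9 CPM in CML and 22.2, 22.3 and 24.0 CPM in WT. The WT libraries lay close together and every CML library was above them. From 22.8 ± 0.999 CPM in WT it rose to 32.7 ± 3.64 CPM, 1.43-fold with an interval from 1.18 to 1.74 (log2 fold change 0.52, SE 0.13, edgeR adjusted p = 0.0153). Leaving out CML replicate 2 left Tyk2 short of the threshold (adjusted p = 0.0873), as did leaving out WT replicate 1 (0.0521) or 2 (0.0876), with log2 fold changes of 0.43 to 0.50.

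Jak1 and Jak3 did not pass. Jak1, the partner kinase of many receptors, had the most counts of the 9 (chr4:101152367-101265282). It stood at 267, 349 and 299.6 CPM in CML and 325, 271 and 247 CPM in WT, and the groups overlapped. Its means were 305 ± 41.3 and 281 ± 40.2 CPM (log2 fold change 0.12, SE 0.14, edgeR adjusted p = 0.602), and the interval of the fold ran from 0.883 to 1.33. Jak3, which pairs with the common gamma chain, is best known from lymphocytes (chr8:71676296-71690575). It had 45.9, 40.7 and 47.1 CPM in CML and 37.9, 35.5 and 39.6 CPM in WT. These did not overlap, but the gap between the lowest CML and the highest WT library was small beside the spread (log2 fold change 0.24, SE 0.12, edgeR adjusted p = 0.177; interval of the fold 0.992 to 1.41).

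Among the STAT factors, Stat4 had the lowest adjusted p of the 9 members. Stat4 carries interleukin-12 signals, is known best from T and NK cells, and lies at chr1:51987148-52107189. It was at 76.5, 89.2 and 77.9 CPM in CML and at 58.7, 52.4 and 51.3 CPM in WT. The lowest CML library was well above the highest WT library. The means were 81.2 ± 6.98 and 54.1 ± 4.02 CPM, and the interval of the fold ran from 1.26 to 1.79 (log2 fold change 0.58, SE 0.12, edgeR adjusted p = 0.00441). Stat4 was the only member called in all 14 alternative fits, with log2 fold changes of 0.51 to 0.69 and adjusted p from 3.19e-04 to 0.0368. Of 15 T and NK cell markers 10 had too few counts to be tested. The CD3 chain genes Cd3d, Cd3e and Cd3g had 3, 2 and 3 counts over the CML libraries together and 2, 1 and 2 over the WT libraries. The NK cell genes Ncr1 and Klrb1c had 8 and 10 counts in CML and 0 and 7 in WT. Of the 5 tested, Thy1 (1723 against 273 counts, edgeR adjusted p = 0.00248) and Gzmb (31281 against 2543) were called higher. Lck (921 and 987 counts), Nkg7 (1999 and 2755) and Cd247 (33 and 42) did not pass. The part of such cells in the Stat4 difference was not tested.

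Stat5b is a main STAT of the interleukin-3, erythropoietin and growth hormone receptors (chr11:100780731-100850724). It stood at 78.8, 102 and 94.95 CPM in CML and at 62.1, 73.0 and 72.3 CPM in WT, and the groups did not overlap. It rose from 69.1 ± 6.08 to 92.0 ± 12.03 CPM, 1.33-fold with an interval from 1.10 to 1.61 (log2 fold change 0.41, SE 0.13, edgeR adjusted p = 0.0417). Stat5b missed the threshold when CML replicate 2 or 3 (adjusted p = 0.172 and 0.136) or WT replicate 1 or 2 (0.147 and 0.106) was left out. Stat5a, its neighbour (chr11:100859351-100885169), was at 68.2, 77.8 and 82.7 CPM in CML and 63.9, 64.2 and 63.3 CPM in WT. Every CML library was higher and the WT libraries were nearly equal, but the difference did not pass (log2 fold change 0.26, SE 0.11, edgeR adjusted p = 0.141). Summed into 1 feature, which divides no reads between them, Stat5a and Stat5b stood at 147, 180.0 and 178 CPM in CML and 126, 137 and 136 CPM in WT. The sum had a log2 fold change of 0.34 (SE 0.12) and missed the threshold (edgeR adjusted p = 0.0625).

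Stat3, the factor of interleukin-6 and granulocyte colony-stimulating factor, lies beside Stat5a and overlaps it by 72 exonic bases on the opposite strand (chr11:100885098-100939540). It was at 86.9, 131 and 118 CPM in CML and 83.8, 83.4 and 88.3 CPM in WT. CML replicates 2 and 3 were high, while CML replicate 1 lay among the WT libraries. The difference did not pass (log2 fold change 0.40, SE 0.14, edgeR adjusted p = 0.0718). Without CML replicate 1 it was 0.55 and passed (adjusted p = 0.00715), as it did with scaling by library totals alone (0.49, adjusted p = 0.0288). Stat6 is the factor of interleukin-4 and interleukin-13 (chr10:127642986-127660957). It was at 72.9, 78.7 and 78.5 CPM in CML and 65.7, 63.6 and 63.2 CPM in WT. The groups did not overlap, yet the difference did not pass (log2 fold change 0.26, SE 0.11, edgeR adjusted p = 0.117). With library totals alone it was 0.36 and passed (adjusted p = 0.0402). That scaling also moved the median log2 fold change of all tested genes, from -0.004 to 0.0945.

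**Figure D2:**
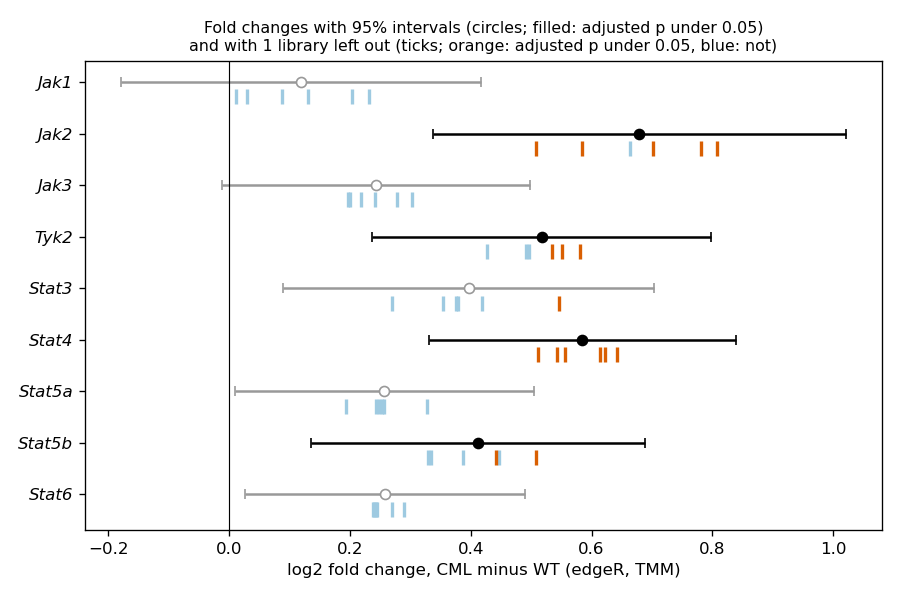
Log2 fold change of each gene, CML minus WT, with its 95% interval (circles; filled where the adjusted p was under 0.05); ticks give the same value with 1 of the 6 libraries left out, orange where it passed. Every tick lies above 0, and Stat4 is the gene with 6 orange ticks.

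Ratios between members were compared as well. A ratio of 2 genes within a library does not depend on how libraries are scaled, and 16 such ratios were compared, 6 among the kinases and 10 among the STAT genes. The log2 ratio of Jak1 to Jak2 counts was 0.51, 0.29 and 0.41 in CML and 0.97, 0.92 and 0.97 in WT. The 2 groups were far apart beside their spread (difference -0.55). The log2 ratio of Jak1 to Tyk2 was 0.39 lower in CML on the means (3.22 ± 0.040 against 3.61 ± 0.26; SD, n = 3). The ratio of Stat4 to Stat6 was 0.33 higher, at 0.08 ± 0.097 against -0.25 ± 0.075. The log2 ratio of Stat5a to Stat5b was -0.21, -0.40 and -0.20 in CML and 0.04, -0.19 and -0.19 in WT, so that the lowest 2 WT libraries nearly met the CML libraries. For 6 of the 16 ratios the groups did not overlap, each with the smallest p this design allows (two-sided exact permutation p = 0.1, adjusted p = 0.267 over the 16).

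Levels can be compared between genes once divided by length, here CPM per kb of merged exon in GENCODE M21. In WT the order was Jak1 (38.9), Jak2 (28.9), Stat6 (14.6), Stat4 (14.0), Stat5b (12.5), Stat5a (8.94), Stat3 (8.94), Jak3 (7.04) and Tyk2 (3.33). Neighbours whose libraries overlapped in that order were Stat6 with Stat4 and Stat5a with Stat3. In CML the order began with Jak2 (46.2) and Jak1 (42.2), whose libraries overlapped. Stat4 followed at 21.0 ± 1.80, above Stat6 at 17.4 ± 0.744 and Stat5b at 16.6 ± 2.17, which overlapped each other. Stat3 (11.8) and Stat5a (10.7) overlapped too, with Jak3 (8.33) and Tyk2 (4.76) at the end. Jak1 and Jak2 were thus the most abundant of the 9 per length in both groups, and Jak3 and Tyk2 the least abundant. The merged exon length counts rarely used exons as well, so these levels depend on the annotation.

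**Figure D3:**
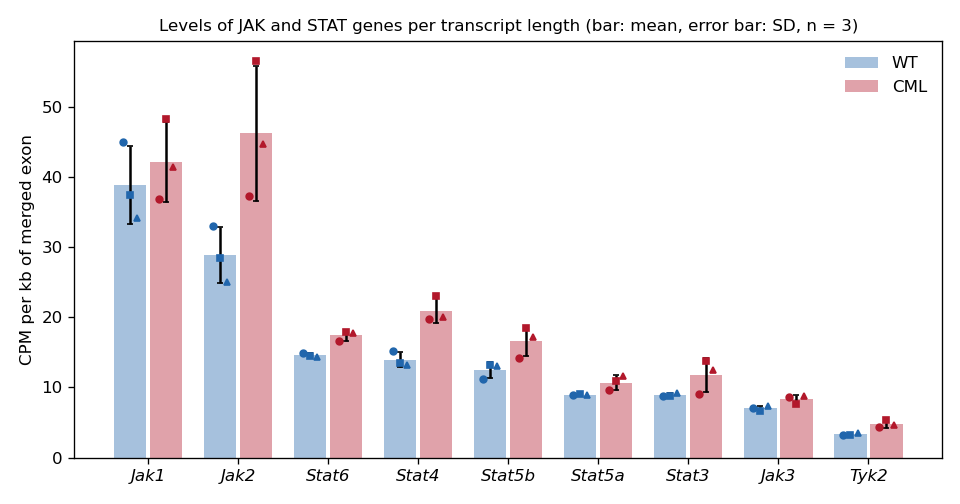
Level per length (CPM per kb of merged exon) of the 9 genes, in WT order; bars are means, error bars SD (n = 3) and symbols the libraries (circle, square and triangle for replicates 1, 2 and 3). Jak1 and Jak2 stand above the rest in both groups, and the order of Stat4 and Stat6 differs between WT and CML.

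Within CML the libraries were not alike. Replicate 1 was the lowest of the 3 for 8 of the 9 genes (Jak3 was the exception), and replicate 2 was the highest for 7. The median log2 ratio of the 9 genes to the WT mean was 0.19, 0.56 and 0.46 for CML replicates 1, 2 and 3. The number of members above all WT libraries was 7, 9 and 8 in that order. Summed markers of mast cells and basophils, T and NK cells, monocytes and macrophages, and megakaryocytes had the same order in CML. The sums of the other marker lists did not. Most of the megakaryocyte sum was Itgb3, at 149, 219 and 187 CPM in CML replicates 1, 2 and 3, while Pf4 and Itga2b were highest in replicate 3. Of 6 tested megakaryocyte markers 1 was called higher (Itgb3) and 1 lower (Itga2b), with 0 to 2 lower in the alternative fits. The mast cell and basophil sum (11 genes) was 2032, 7107 and 4522 CPM in CML replicates 1, 2 and 3, against 123 to 275 CPM in WT. Of these 11 markers 7 were called higher and 0 lower (2 higher without WT replicate 1, 4 without WT replicate 2 and 11 without CML replicate 1), and none was at 0 in all libraries. The summed monocyte and macrophage markers (10 genes) ran from 360.2 to 425 CPM in CML and from 237 to 293 CPM in WT, with 5 higher and 0 lower of 8 tested. Dendritic markers (10 genes) ran from 46.4 to 159 CPM and from 22.5 to 47.3 CPM, with 3 higher and 0 lower of 7 tested (1 to 5 higher with a library left out). B cell markers (7 genes) ran from 42.5 to 50.2 CPM in CML and from 12.1 to 16.9 CPM in WT, with 2 higher of 2 tested. Erythroid markers (10 genes) ran from 214 to 273 CPM and from 168 to 189 CPM, with 2 higher and 1 lower of 7 tested (6 higher without CML replicate 1). Most of the CML sum was Aqp1, at 255, 189 and 163 CPM, against 6.99 to 9.78 CPM in WT. Most of the WT sum was the lower gene, the globin gene Hbb-bt. It fell from 167 ± 9.97 CPM in WT to 35.5 ± 18.7 CPM in CML (log2 fold change -2.23, edgeR adjusted p = 0.0283). Without CML replicate 3 or any 1 of the WT replicates, 0 were called lower. The sums of dendritic, neutrophil and megakaryocyte markers overlapped between the groups. The summed T and NK cell markers (15 genes) ran from 413 to 1217 CPM in CML and from 109 to 161 CPM in WT. Most of that sum in CML was Gzmb, a granzyme gene, at 332, 1104 and 679 CPM, which sets its order. Thy1 (23.8, 42.2 and 47.9 CPM) and Nkg7 (30.8, 49.0 and 52.4 CPM) were highest in replicate 3, and Lck in replicate 1. The part of these other cell types in the differences of the JAK and STAT genes was not tested.

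The annotation puts other gene models over several members. Gm28177, on the strand of Stat4, shares 1033 exonic bases with it and held at most 7.35% of the Stat4 count in any library. The Stat4 counts carry fractions in all 6 libraries, and their sums with Gm28177, or with the pseudogene Gm3940, which lies within the gene on the opposite strand and shares no exonic base, were whole in 0 of 6, so the Stat4 value is uncertain in this respect too. Adding the Gm28177 counts to Stat4 gave a log2 fold change of 0.55 (edgeR adjusted p = 0.00605). Insl3 shares 404 exonic bases with Jak3, and 1700084C06Rik, on the opposite strand, 554 with Tyk2. They held at most 0.994% and 0.522% of the member's count. Nab2 overlaps Stat6 on the opposite strand by 40 exonic bases and held at most 10.7% of its count, and the summed value of 0.26 did not pass either (adjusted p = 0.116 against 0.117 for Stat6 alone). The strand setting of the counting is not given in the sources used here.

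The genes beside the STAT cluster of chromosome 11 were compared as well. Stat5b, Stat5a and Stat3 lie in that order, with 8626 bases between Stat5b and Stat5a. Cavin1, the next gene of the table beyond Stat3 and 17192 bases from it, did not pass (log2 fold change -0.70, SE 0.32, edgeR adjusted p = 0.155). On the left of Stat6, Lrp1, an endocytic receptor gene, rose from 0.308 ± 0.061 to 1.14 ± 0.375 CPM (log2 fold change 1.86, SE 0.45, adjusted p = 0.0130). Gm31812, 931 bases from Stat4, had 0.34 and did not pass (adjusted p = 0.556). The other 3 nearest gene models had too few counts to be tested.

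STAT dimers are known to bind a palindrome with TTC and GAA at its ends, so the promoters were searched for TTCNNNGAA and for the form with 1 more N, both of which read the same on both strands. The RefSeq promoter table (GRCm38.p6, from 250 bases before to 50 after each start) held 12 windows for the 9 members, and 0 of the 12 had either motif. Of all 32851 windows of that length, 8.30% held the first motif and 6.95% the second. No match says only that these letters are not in these windows. Between windows of different members, the longest run shared in the 250 upstream bases was 16 bases, between inner start sites of Stat5a and Stat5b, and the next longest was 12 bases. The 80 bases before each of these starts are shown because these are the most alike upstream stretches among the members (GRCm38.p6, chr11:100860404-100860483 on the plus strand and chr11:100822571-100822650 on the minus strand), with the run in capitals.
Stat5a upstream: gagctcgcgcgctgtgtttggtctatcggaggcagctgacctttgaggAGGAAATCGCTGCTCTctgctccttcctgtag
Stat5b upstream: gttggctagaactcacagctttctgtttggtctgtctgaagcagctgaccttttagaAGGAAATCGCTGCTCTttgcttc

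Genes with the pattern most like Stat4 and Jak2, the members with the lowest adjusted p, were sought among 9915 other genes by the root mean square difference of their centred log2 CPM over the 6 libraries. For Stat4 they were Cdk14, a kinase gene (difference 0.04), Manea, a mannosidase gene (0.06), and Rab8b, a small GTPase gene (0.06). For Jak2 they were Idh1, isocitrate dehydrogenase (0.06), Stat2 (0.06) and Notch2, a Notch receptor (0.07). Stat2 itself, a factor of type I interferon signalling, stood at 10.6, 16.4 and 12.9 CPM in CML and 9.498, 9.09 and 7.47 CPM in WT. Its groups did not overlap, and its log2 fold change of 0.61 passed narrowly (SE 0.19, edgeR adjusted p = 0.0460). It missed the threshold without any 1 of CML replicates 2 and 3 and WT replicates 1, 2 and 3 (adjusted p from 0.0649 to 0.215), with limma-voom (0.0586) and with the replicate number as a block (0.0521). Irf9, which works with STAT2 in the interferon-induced complex, did not pass (log2 fold change 0.42, SE 0.14, adjusted p = 0.0554). It passed without WT replicate 3 (adjusted p = 0.0110) and in 4 other fits.

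Of 27 listed cytokine genes upstream of the kinases 11 could be tested, with 4 higher, 1 lower and 6 not passing, and a median log2 fold change of 0.44 against 0.38 for the 4 kinases. For this list and those below, the shares over all tested genes are 10.2% higher and 7.20% lower. Il6 and Lif, ligands of the gp130 receptor that signals through STAT3, and Osm of the same family were the largest increases. Il6 was at 108, 123 and 122 CPM in CML and 17.7, 9.09 and 8.91 CPM in WT. The difference was 3.30 on the log2 scale (SE 0.25, edgeR adjusted p = 5.54e-05). Lif had 19.5 ± 9.06 against 1.52 ± 0.154 CPM (3.67, adjusted p = 1.40e-04) and Osm 31.5 ± 12.9 against 5.91 ± 0.850 CPM (2.41, adjusted p = 0.00111). Ebi3, a subunit of interleukin-27 and interleukin-35, had 0.44 (adjusted p = 0.0299), which missed the threshold when CML replicate 2 or 3 (0.112 and 0.0707) or WT replicate 1 or 2 (0.0847 and 0.179) was left out. Il15 fell by 1.71 on the log2 scale, from 33.8 ± 4.48 to 10.3 ± 1.49 CPM (adjusted p = 1.55e-05).

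Of 36 receptor genes 31 were tested, with 8 higher, 1 lower and 22 not passing; 12 were called higher with library totals alone and 13 without CML replicate 1. Ifngr2, the accessory chain of the interferon gamma receptor, was at 90.6, 112 and 97.6 CPM in CML and 25.9, 24.5 and 32.3 CPM in WT. The difference was 1.86 on the log2 scale (SE 0.14, edgeR adjusted p = 2.09e-06). Il6st, which encodes gp130, rose from 35.9 ± 4.85 to 83.0 ± 5.60 CPM (1.21). Il27ra rose by the same 1.21 and Il4ra, the interleukin-4 receptor that uses STAT6, by 1.02. Csf2rb, the common beta chain that also signals through JAK2, was chosen after its values were seen. It was at 194, 479 and 315 CPM in CML and 55.8, 56.8 and 69.5 CPM in WT (2.44, SE 0.33, adjusted p = 0.00425; 0.0656 without WT replicate 1). Its near-copy Csf2rb2 makes the division of reads between them uncertain.

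Among the inhibitors, 3 of 8 SOCS-box genes were higher and 0 lower. Cish rose by 2.42 (adjusted p = 3.23e-08), Socs3 by 3.06 and Socs1 by 1.38 on the log2 scale (edgeR). The other 5, Socs2 and Socs4 to Socs7, did not pass. Of 13 other inhibitors (phosphatases, PIAS proteins and adaptors) 1 was higher and 1 lower, near the shares over all tested genes (10.2% and 7.20%). Ptpn1, a phosphatase gene that acts on JAK2 and TYK2, had a log2 fold change of 0.58 (adjusted p = 0.00959), lost without CML replicate 2 (0.0548) or WT replicate 2 (0.0600). Usp18, an interferon-induced brake, had -0.59 (adjusted p = 0.0167), and missed the threshold when CML replicate 2 (0.0663) or WT replicate 2 or 3 (0.101 and 0.0507) was left out. Of 10 other STATs and partners Stat2 alone passed, where 17.4% of all tested genes passed in either direction. Crebbp and Ep300, the coactivators, did not pass.

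Genes known to respond to each factor were counted without a direction being assumed, and several are in more than 1 list. Of 16 STAT5-responsive genes 7 were higher and 3 lower in CML, with a median log2 fold change of 0.33. Bcl6, a repressor, rose by 2.49, and Id1, an inhibitor of differentiation factors, fell by 1.31. Of the 16 STAT3-responsive genes 13 were tested, with 7 higher, 0 lower and a median of 0.89. Junb rose by 1.41, Batf by 1.53, Bcl3 by 1.88 and Icam1, an adhesion gene, by 0.89. Socs3 is in the STAT5 list too, and Cish, Socs1 and Osm are in it beside the lists above.

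Of 19 STAT6-responsive genes 15 were tested, with 10 higher, 1 lower and a median of 2.17. The lower gene was Pparg, a nuclear receptor, and 0 were called lower in 6 of the 14 alternative fits. Pdcd1lg2, which encodes PD-L2, was at 75.9, 92.2 and 78.8 CPM in CML and 10.3, 11.1 and 10.03 CPM in WT. The difference was 2.97 on the log2 scale (SE 0.13, edgeR adjusted p = 1.93e-08). The lectin genes Mrc1 and Clec10a rose by 4.47 and 2.61. Mrc1 is on the monocyte and macrophage marker list too, and the part of other cell types in these differences was not tested. Mgl2 had 1264 counts over the CML libraries and 4 over the WT libraries, and Ccl24, an eotaxin gene, 151 and 1. Arg1, an arginase gene much used as a STAT6 readout, had 11 and 9 counts and Retnla 0 and 0, too few to test.

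Of 12 STAT4-responsive genes 9 were tested, with 6 higher, 0 lower and a median of 1.23; 3 were called when CML replicate 2 or WT replicate 1 or 2 was left out. Ets1 rose by 2.15 and Hlx by 2.32. Furin, a protease gene, had 3.29 (edgeR adjusted p = 0.00239; 0.0530 without WT replicate 1) and Il18rap 0.63 (0.0112; 0.0508 without CML replicate 2 and 0.0740 without WT replicate 2). Gzmb, also on the T and NK cell marker list, had 3.76 (adjusted p = 0.0254). It was lost without any 1 of CML replicates 2 and 3 and WT replicates 1, 2 and 3 (0.0561 to 0.116) and with the replicate number as a block (0.155). Tbx21, the T-box factor of the STAT4 pathway in T cells, had 2 counts in CML and 0 in WT.

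**Figure D4:**
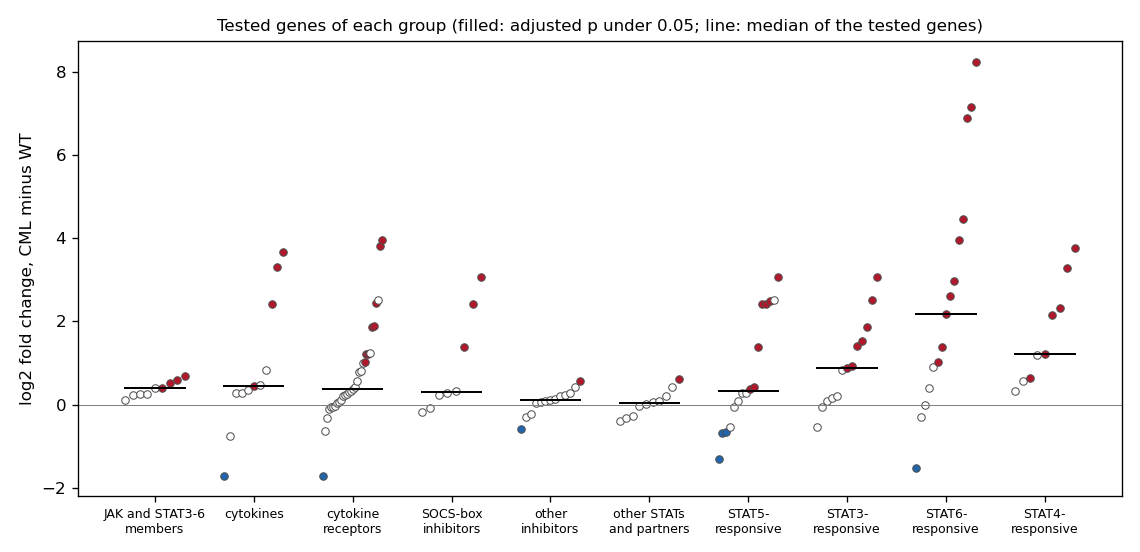
Log2 fold change, CML minus WT, of every tested gene of each list, sorted within the list; filled points passed the threshold (red higher, blue lower), open points did not, and lines are medians over tested genes. The members lie between 0.12 and 0.68, while tested cytokines run from -1.71 to 3.67.

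The libraries held between 13323469 and 17926847 rounded counts, and the 9 genes together made up 0.0943% to 0.122% of a CML library and 0.0770% to 0.0827% of a WT library. Over all genes, 2820 of 16221 were called, 17.4%, with 1652 higher and 1168 lower in CML (2065 and 732 with library totals alone). Of the gate's genes, Kit was at 202 to 402 CPM in CML and 285 to 302 CPM in WT, and Ly6a and Slamf1 were present in every library. Of 12 stem and progenitor markers 0 were called higher and 3 lower, Slamf1 and Hlf among them.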

How the data were processed

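Bulk RNA sequencing of 3 CML and 3 WT libraries was analysed from a table of estimated counts per gene that the authors deposited, not scaled to a common total. Non-whole values made up 35.0% to 36.9% per library, and counts were rounded for testing. The submitters' processing notes list STAR 2.7.3a and Partek 8.0 without their roles. Genes passing filterByExpr (minimum count 10) were tested with edgeR 4.0.16 in R 4.3.3 (quasi-likelihood F test), with TMM scaling, robust dispersions and group as the only term. P-values were adjusted over all 16221 tested genes. Standard errors came from the fold change and F, and 95% intervals are not adjusted. The pipeline was tested on simulated data. Alternatives used other scalings and filters, DESeq2 1.42.0, limma-voom (limma 3.58.1), a replicate block and each library left out. Summed features were chosen after seeing the data. Same-numbered libraries did not deviate together (correlations -0.021, -0.052 and 0.0087), and the main fit did not pair them. The labels do not say whether same-numbered libraries share a culture or a day, and these correlations cannot exclude it. Coordinates and exon lengths came from GENCODE M21 on GRCm38, matching 96.9% of symbols.

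The members and gene lists were chosen with earlier results of these data known. From each list the text names up to 5 called genes with the lowest adjusted p and at least 1 CPM in a group, beside all members, Stat2 and Irf9; other genes given by name were chosen after their values were seen, and some genes of the lists are counted but not reported here by name. CPM precision is limited by counting error and by 3 libraries per group.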

Additional observations from a re-analysis of the deposited data

How the results depend on the processing

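All 9 members kept a log2 fold change above 0 in each of the 14 alternative fits. With 1 library left out, the number of members called ran from 1 to 5 (4 as reported) and the number of all genes called from 1466 to 4122 (2820 as reported). As a share of the genes tested in each fit, that was 8.73% to 24.5% (17.4% as reported). The lowest values came without WT replicate 2, where Stat4 alone was called. Jak2 and Stat4 were called without CML replicate 2 and without WT replicate 1. With library totals alone 6 members were called, since Stat3 and Stat6 were added. Of all tested genes 17.2% were called with that scaling, and the number called higher rose from 1652 to 2065. There the median log2 fold change of all tested genes was 0.0945, against -0.004 as reported. With the replicate number as a block the counts were 4 members and 2807 genes, and among the genes named, Stat2 and Gzmb lost their call and Irf9 gained one. DESeq2, limma-voom, other size factors and other filters called the same 4 members. Of named pathway genes, Pim1 (0.42, edgeR adjusted p = 0.0476) missed the threshold in 5 of the 14 fits: with DESeq2 size factors (0.0505) and when CML replicate 2 or 3 (0.118 and 0.205) or WT replicate 1 or 2 (0.173 and 0.167) was left out. Kit, not called in either direction, had -0.16 without CML replicate 2 and 0.30 without CML replicate 1. In leave-one-out fits fewer samples enter and other genes pass the filter. Differences of the size seen for Jak3, Stat5a and Stat6 were not resolved with 3 libraries per group.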

Other observations

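Some cytokine genes were too scarce to test and were singled out after their values were seen. Il13, a ligand that signals through STAT6, had 39 counts over the 3 CML libraries and 0 over the WT libraries. Il9, which signals through JAK1, JAK3 and several STATs, had 41 and 0. The receptor gene Il9r had 222 and 15 counts, and its log2 fold change of 3.96 passed (edgeR adjusted p = 0.00270 over all tested genes). Csf2, which encodes granulocyte-macrophage colony-stimulating factor, had 14 and 2 counts. Tslp had 27 in each group.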
